A study of Mus musculus and Homo sapiens with 12 samples.

Results

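A set of 9 genes was followed through both experiments of a study of the RNA helicase DDX21: Zfp365, Ano3, Sulf2, Fat1, Serpine2, Inka2, Gpx3, Ptpn14 and Psrc1. They were chosen by their measured cKO over WT fold change, as very large rises in mouse blood progenitors that had lost Ddx21, out of 55487 genes in the mouse count table, with no numerical threshold. The mouse values below therefore describe why the genes were chosen and carry no test. The question put to independent data was what the matching human genes did when DDX21 was knocked down.

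Polyadenylated RNA was counted in 12 libraries, 3 in each of 4 groups. The mouse cells were live E13.5 (embryonic day) fetal liver cells sorted for Kit and against markers of mature lineages (LK cells, a population of blood progenitors). The WT group had the genotype Ddx21 f/f, in which Ddx21 is flanked by loxP sites but intact. The cKO group had the genotype Vav1-Cre; Ddx21 f/f, so that both groups carried the floxed alleles and only the second carried Cre, driven by a promoter active in blood cells. The mouse strain and the number of embryos behind a library are not given in the labels. The human cells were made from the embryonic stem cell line H1 with a blood differentiation kit and transduced with lentivirus carrying mCherry and a hairpin RNA. The hairpin was a control (shNC) or aimed at DDX21 (shDDX21), with 1 hairpin name in each arm. Cells positive for CD34, CD45, CD43 and the vector were sorted 2 days after transduction. Whether the replicates of a group are separate animals or cultures is not in the labels, so the p-values measure the spread between these libraries, which may be technical.

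DDX21 is a nucleolar helicase that acts in ribosomal RNA synthesis and processing. Loss of ribosome production is known to free ribosomal proteins that bind MDM2, which stabilises the transcription factor p53, and p53 then raises the transcription of its target genes. Several of the 9 genes are known from other work as p53 targets, among them ZNF365, SULF2, INKA2, PTPN14 and PSRC1, but they share no biochemical family. Zfp365 encodes a zinc finger protein linked to genome stability, Ano3 a membrane protein of the anoctamin family of ion channels and lipid scramblases, and Psrc1 a microtubule-binding protein of the mitotic spindle. Sulf2, Serpine2 and Gpx3 encode secreted proteins: an enzyme that removes 6-O sulfate groups from heparan sulfate, an inhibitor of thrombin and plasminogen activators, and the plasma glutathione peroxidase. Fat1 encodes a very large cadherin, and Ptpn14 a tyrosine phosphatase that binds the Hippo pathway effector YAP. Inka2 encodes an inhibitor of the kinase PAK4.

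The libraries held 21116079 to 23898130 counts in the mouse and 15289510 to 19798608 in the human experiment. The targeted gene was low where the labels say so: Ddx21 was at 1424 ± 12.5 CPM in WT against 280.2 ± 3.62 CPM in cKO, and DDX21 at 470.1 ± 6.05 CPM in shNC against 68.3 ± 1.14 CPM in shDDX21 (n = 3 in each group, SD). CPM are counts per 1000000 counts of the TMM-scaled library, and RPKM, used below, are CPM per 1000 bases of exon. Markers of blood progenitors were present in every group and did not move as 1 set. Kit was at 362.3 ± 5.02 CPM in WT against 316.9 ± 5.17 CPM in cKO, while Cd34 was at 133.7 ± 6.23 against 215.2 ± 2.13 CPM (n = 3 in each group, SD). CD34 was at 248.6 ± 3.06 CPM in shNC against 297.5 ± 1.87 CPM in shDDX21, while GATA2, a transcription factor gene of blood progenitors, was at 434.6 ± 7.33 against 199.6 ± 2.77 CPM (n = 3 in each group, SD). In bulk RNA such as this, fewer cells of a type and less RNA per cell cannot be told apart.

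In the mouse, the 9 genes together took 34.1 to 39.8 CPM of a WT library and 742.5 to 841.9 CPM of a cKO library. Each of the 9 had all 3 cKO libraries above all 3 WT libraries, as did 27.6% of the 14918 genes tested, and each was called higher, as were 20.7%. Of all calls in the mouse 56.6% were higher, and 68.9% with scaling to total counts. The choice of the genes sets both counts for the 9. The name given to the group, genes switched on from near silence, held for 4 of them, Zfp365, Ano3, Sulf2 and Fat1, which were under 1 CPM in every WT library. Serpine2 and Inka2 lay close to 1 CPM, and Gpx3, Ptpn14 and Psrc1 were already expressed in WT. All 9 passed the filter on low counts, but Zfp365 and Ano3 had no WT library past its cutoff and Sulf2 and Fat1 had 1 each, so these 4 passed because of their level in cKO.

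**Figure D1:**
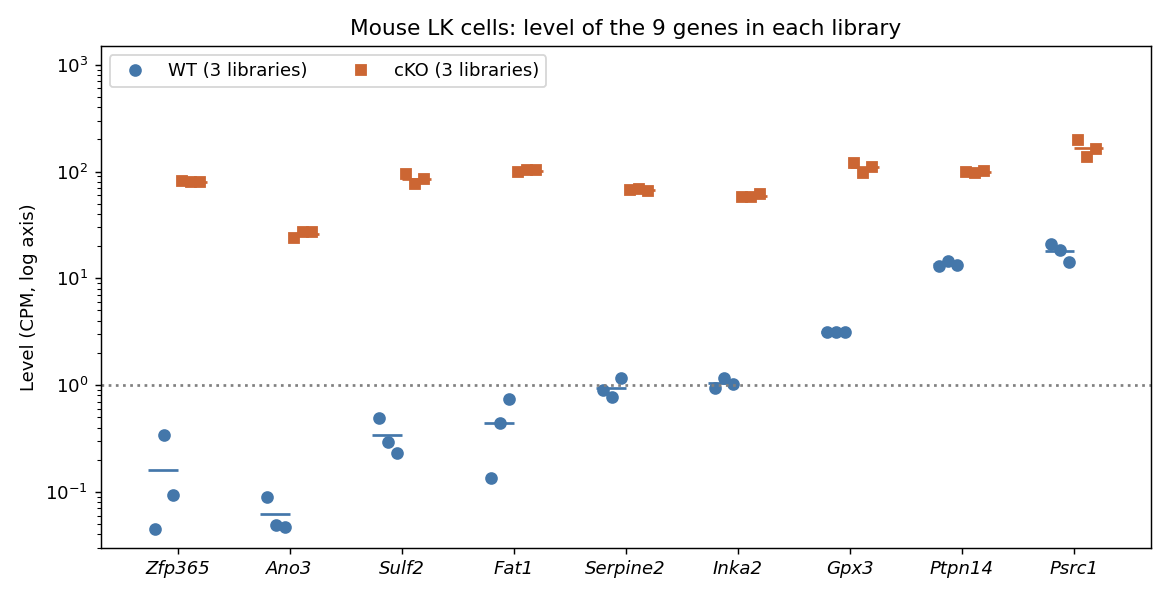
Level of each of the 9 genes in the mouse LK cell libraries, in CPM on a log axis, with 1 point per library, circles for WT and squares for cKO; short lines are group means and the dotted line marks 1 CPM. The WT points of Zfp365, Ano3, Sulf2 and Fat1 all lie under the dotted line, and no gene's WT and cKO points overlap.

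Zfp365 (ENSMUSG00000037855; GRCm38 chromosome 10, 67886103 to 67912662, minus strand) gave 1, 7 and 2 WT counts in replicates 1, 2 and 3 and 1858, 1962 and 1768 cKO counts. These are 0.159 ± 0.159 CPM in WT against 80.2 ± 0.702 CPM in cKO (n = 3 in each group, SD). Its cKO level was thus nearly the same in each library, while the WT level was a handful of reads. The log2 fold change was 8.96, and it was 10.08 without WT replicate 2, which held 7 of the 10 WT counts. The summed counts gave a ratio of 516, with an exact 95% interval of 280 to 1077 that covers counting error only.

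Ano3 (ENSMUSG00000074968; chromosome 2, 110655201 to 110950923, minus strand) gave 2, 1 and 1 WT counts and 543, 667 and 597 cKO counts. It moved from 0.0616 ± 0.0244 to 25.9 ± 1.97 CPM (n = 3 in each group, SD). With 4 WT counts in all, the ratio of summed counts was 417 with an exact 95% interval of 163 to 1533. Ano3 shares 61 exon bases with Muc15 on the opposite strand, which encodes a mucin and gave 0, 0 and 1 WT counts and 24, 30 and 31 cKO counts. Whether the authors' counting used strand is not given in the sources used here, so reads from the shared bases cannot be told apart.

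Among the genes of secreted proteins, Sulf2 (ENSMUSG00000006800; chromosome 2, 166073089 to 166155663, minus strand) gave 11, 6 and 5 WT counts and 2175, 1899 and 1873 cKO counts. It was at 0.339 ± 0.137 CPM in WT against 85.5 ± 8.90 CPM in cKO (n = 3 in each group, SD), for a log2 fold change of 7.95. Sulf2 overlaps 154 exon bases of Ncoa3, a nuclear receptor coactivator on the other strand that was expressed in both groups, with 1349, 1181 and 1360 WT counts and 1883, 1870 and 1738 cKO counts. The low WT counts of Sulf2 were thus found beside an overlapping gene with at least 1181 counts in each library.

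Serpine2 (ENSMUSG00000026249; chromosome 1, 79794197 to 79861180, minus strand) gave 20, 16 and 25 WT counts and 1547, 1710 and 1440 cKO counts. The levels were 0.945 ± 0.195 and 67.3 ± 2.00 CPM (n = 3 in each group, SD), and the log2 fold change was 6.14, or 70.7-fold. Serpine2 had the middle log2 fold change of the 9 genes. Gpx3 (ENSMUSG00000018339; chromosome 11, 54902453 to 54910377, plus strand) gave 70, 65 and 67 WT counts and 2775, 2393 and 2424 cKO counts. Its WT level of 3.14 ± 0.0273 CPM varied little between libraries, and its cKO level was 109.3 ± 11.9 CPM (n = 3 in each group, SD), for a log2 fold change of 5.12.

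At the cell surface and cortex, Fat1 (ENSMUSG00000070047; chromosome 8, 44935447 to 45052257, plus strand) gave 3, 9 and 16 WT counts and 2283, 2528 and 2274 cKO counts. It went from 0.438 ± 0.304 to 101.7 ± 1.97 CPM (n = 3 in each group, SD), for a log2 fold change of 7.85, or 231-fold. WT replicate 3 held most of the few WT counts, and without it the ratio was 354-fold. Ptpn14 (ENSMUSG00000026604; chromosome 1, 189728268 to 189876695, plus strand) gave 293, 298 and 288 WT counts and 2296, 2380 and 2227 cKO counts. That is 13.7 ± 0.731 CPM against 99.1 ± 2.39 CPM (n = 3 in each group, SD), for a log2 fold change of 2.86, the lowest of the 9. Ptpn14 was therefore expressed in WT as well. Antisense genes that share exon bases with Fat1 (Gm2366, 487 bases) and Ptpn14 (Gm26574, 177 bases) had at most 8 counts in any library.

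Inka2 (ENSMUSG00000048458; chromosome 3, 105704599 to 105720842, plus strand) gave 21, 24 and 22 WT counts and 1334, 1411 and 1353 cKO counts. Its level was 1.04 ± 0.115 CPM in WT against 58.9 ± 2.20 CPM in cKO (n = 3 in each group, SD), for a log2 fold change of 5.81. The replicates of Inka2 lay close together in both groups. Psrc1 (ENSMUSG00000068744; chromosome 3, 108383839 to 108388231, plus strand) gave 466, 378 and 309 WT counts and 4523, 3373 and 3608 cKO counts. It stood at 17.9 ± 3.31 CPM in WT against 165.8 ± 30.2 CPM in cKO (n = 3 in each group, SD), for a log2 fold change of 3.21, or 9.26-fold. Psrc1 had the widest spread in cKO, from 136.7 CPM in replicate 2 to 197.0 CPM in replicate 1. Replicate 2 was the lowest cKO library for 6 of the 9 genes, replicate 1 for Ano3 and Fat1, and replicate 3 for Serpine2.

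Levels of different genes were compared per length, as RPKM. In WT the order was led by Psrc1 at 5.31 ± 0.984, Gpx3 at 1.73 ± 0.0151 and Ptpn14 at 1.02 ± 0.0545 RPKM (n = 3 in each group, SD). Inka2 and Serpine2 followed at 0.218 and 0.114 RPKM, each above the next in every library. Sulf2, Zfp365, Fat1 and Ano3, at 0.0578, 0.0306, 0.0280 and 0.00853 RPKM, came last and overlapped their neighbours in the order. In cKO, Gpx3 at 60.3 ± 6.59 and Psrc1 at 49.3 ± 8.98 RPKM were highest and overlapped, followed by Zfp365 at 15.4 ± 0.135 and Sulf2 at 14.6 ± 1.52 RPKM, which also overlapped (n = 3 in each group, SD). Inka2 at 12.3, Serpine2 at 8.12, Ptpn14 at 7.39, Fat1 at 6.49 and Ano3 at 3.59 RPKM were each separated from the next in every library. Ptpn14 was thus at place 3 of the 9 in WT and 7 in cKO, while the WT places of the last 4 genes rest on few counts and overlap.

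The sequence just before the RefSeq transcript starts of the 9 genes was read for short motifs, since the genes were chosen as moving together. All 9 had RefSeq promoter windows on GRCm38.p6, 13 windows among 32851, each cut here to the 250 bases before the start. Of the 13, 7 lie wholly within the GENCODE span of their gene, before an inner transcript start, among them the Fat1 window. Zfp365 and Sulf2 are shown as genes that were near silent in WT, and the second window of Inka2 as the only one of the 13 with a match to the p53 decamer consensus. Capitals mark matches to the motifs searched on both strands: the p53 decamer, GGGCGG (GC box), CCAAT and TATAAA. None of the windows shown overlaps a GENCODE M21 exon, and the Inka2 window lies within the gene, in an intron.
Zfp365, chr10:67912663-67912912, minus strand: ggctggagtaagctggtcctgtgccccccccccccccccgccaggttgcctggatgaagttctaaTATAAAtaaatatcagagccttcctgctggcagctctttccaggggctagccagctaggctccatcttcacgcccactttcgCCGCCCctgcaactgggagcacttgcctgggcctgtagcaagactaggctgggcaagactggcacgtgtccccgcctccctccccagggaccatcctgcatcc
Sulf2, chr2:166155684-166155933, minus strand: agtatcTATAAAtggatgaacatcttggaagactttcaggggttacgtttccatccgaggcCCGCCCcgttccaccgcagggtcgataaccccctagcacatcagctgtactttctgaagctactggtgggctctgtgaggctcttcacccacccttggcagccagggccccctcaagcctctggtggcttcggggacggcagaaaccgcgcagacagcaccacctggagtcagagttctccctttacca
Inka2, chr3:105705208-105705457, plus strand: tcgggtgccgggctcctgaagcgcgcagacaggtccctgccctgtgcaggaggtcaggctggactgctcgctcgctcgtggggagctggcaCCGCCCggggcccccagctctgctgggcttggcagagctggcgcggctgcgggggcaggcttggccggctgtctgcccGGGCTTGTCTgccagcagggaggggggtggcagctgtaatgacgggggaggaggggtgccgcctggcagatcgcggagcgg
The p53 decamer of Inka2 reads GGGCTTGTCT at -81 to -72 from that start. The decamer was searched singly, with no second one required beside it. A match was found in 1 of the 13 windows, and 7.13% of all 32851 windows hold one. GGGCGG was found in 7 of the 13 windows, from 7 genes, against 32.7% of all windows. CCAAT was found in 5 of the 13, from 4 genes, against 33.8%. TATAAA was found in 4 of the 13, from Ano3, Inka2, Sulf2 and Zfp365, against 12.4%. The TATAAA matches lie between -244 and -170 from the start. The base composition of the windows varied widely, from 42.0% G and C in the window within Fat1 to 80.8% before Ptpn14, against a median of 52.4% over all windows. A match describes letters only, and genes with more than 1 window had more chances to hold one.

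The genes next to the 9 were examined on each side, taking the nearest tested gene that did not overlap the member. Overlapping genes such as Muc15 and Ncoa3 were thus left out. The gaps ran from 408 bases for Tnip1 to 2688039 bases for Gm6180 near Fat1, so some neighbours are far away. Of these 18 neighbours, 2 were called higher in cKO, 4 lower and 12 not called by the quasi-likelihood test of edgeR (p adjusted over all genes by Benjamini-Hochberg), and the median log2 fold change was -0.07. Over all tested genes 20.7% were called higher and 15.8% lower, with a median of 0.00. Cyp4v3, a cytochrome P450 gene beside Fat1, rose by 1.15 (adjusted p 0.0105) from 0.774 to 1.73 CPM, and Sort1, a sorting receptor gene beside Psrc1, rose by 0.25 (adjusted p 0.0187). Cenpf, a kinetochore gene beside Ptpn14, fell by 0.71, and Ccdc34 beside Ano3, Rtkn2 beside Zfp365 and Mrpl44 beside Serpine2 fell by 0.59, 0.35 and 0.30. Tnip1, whose annotated span lies 408 bases from that of Gpx3, had a log2 fold change of 0.06 (adjusted p 0.821). Celsr2, a cadherin gene whose span lies 2620 bases from that of Psrc1, was at -0.63 and was not called (adjusted p 0.0801). These gaps lie between the ends of annotated spans and are not distances between transcript starts. The log2 fold changes of the 18 neighbours ranged from -0.71 to 1.15.

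**Figure D2:**
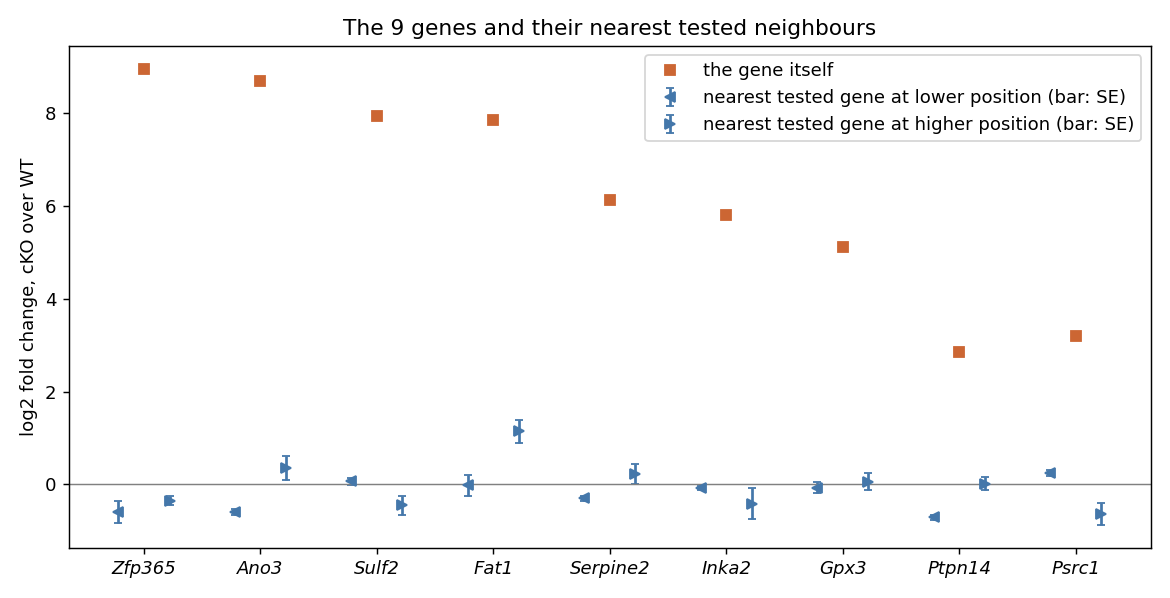
Log2 fold change of cKO over WT for each of the 9 genes (squares) and for the nearest tested, non-overlapping gene on either side (triangles, with the standard error as bar). The value of Ano3 is the log2 ratio of summed counts. The 18 neighbours lie between -0.71 and 1.15, while the 9 genes lie at 2.86 or above.

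The human matches gave the independent readout. Of the 9 genes, 7 were paired with a human identifier in the tables used here, and ZNF365 and ANO3 were not analysed here. None of the 7 was silent in the human control. All were above 1 CPM in every shNC library, including SULF2 and FAT1, whose mouse counterparts were under 1 CPM. Human symbols came only from the authors' normalized values, which cover 18674 of 78932 genes and 99.6% of counts. A human gene with hardly any counts could therefore go unmatched. The absence of silent matches can thus come from the matching itself and carries no support. Of the 7, 2 were called higher in shDDX21 (PSRC1 and PTPN14), 4 were called lower (SERPINE2, FAT1, SULF2 and INKA2) and GPX3 was not called. Over all 20188 human genes tested, 25.3% were called higher and 27.4% lower, so that 52.7% were called at all. Adjusted p-values are those of the quasi-likelihood fit of edgeR over all of these genes, by the method of Benjamini and Hochberg.

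PSRC1 (ENSG00000134222; hg38 chromosome 1, 109279556 to 109283186, minus strand) gave 383, 325 and 388 shNC counts and 706, 613 and 604 shDDX21 counts. It rose from 21.1 ± 0.789 to 35.7 ± 1.09 CPM (n = 3 in each group, SD), or 69.1%, with a log2 fold change of 0.76 (SE 0.064, edgeR adjusted p 5.31e-17). The groups did not overlap. PTPN14 (ENSG00000152104; chromosome 1, 214348700 to 214552449, minus strand) gave 1391, 1120 and 1211 shNC counts and 1599, 1427 and 1447 shDDX21 counts. Its level rose from 71.6 ± 3.02 to 83.0 ± 1.37 CPM (n = 3 in each group, SD), for a log2 fold change of 0.21 (SE 0.04, edgeR adjusted p 4.06e-06), again without overlap. In the mouse, Ptpn14 and Psrc1 had the 2 smallest log2 fold changes of the 9 genes.

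SERPINE2 (ENSG00000135919; chromosome 2, 223975045 to 224039318, minus strand) gave 701, 555 and 646 shNC counts and 338, 307 and 326 shDDX21 counts. It fell from 36.6 ± 0.469 to 18.0 ± 0.623 CPM (n = 3 in each group, SD), for a log2 fold change of -1.02 (SE 0.066, edgeR adjusted p 1.01e-22), and was 50.7% lower. All shDDX21 libraries lay between 17.4 and 18.6 CPM and all shNC libraries above 36 CPM. FAT1 (ENSG00000083857; chromosome 4, 186587794 to 186726722, minus strand) gave 1047, 789 and 986 shNC counts and 670, 688 and 595 shDDX21 counts. It fell from 54.1 ± 2.28 to 36.4 ± 3.85 CPM (n = 3 in each group, SD), for a log2 fold change of -0.58 (SE 0.054, edgeR adjusted p 3.5e-15). The FAT1 groups did not overlap.

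INKA2 (ENSG00000197852; chromosome 1, 111680630 to 111755824, minus strand) gave 1613, 1248 and 1542 shNC counts and 1394, 1226 and 1144 shDDX21 counts. It fell from 84.5 ± 2.75 to 69.8 ± 4.06 CPM (n = 3 in each group, SD), for a log2 fold change of -0.28 (SE 0.041, edgeR adjusted p 1.7e-08), without overlap between groups. INKA2 shares 93 exon bases with DDX20, an RNA helicase gene on the opposite strand, which gave 991, 717 and 890 shNC counts and 659, 643 and 670 shDDX21 counts. The part of DDX20 reads in the INKA2 value was not tested.

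SULF2 (ENSG00000196562; chromosome 20, 47656197 to 47786616, minus strand) gave 227, 138 and 234 shNC counts and 192, 138 and 152 shDDX21 counts. Its level fell from 11.4 ± 2.15 to 8.90 ± 0.863 CPM (n = 3 in each group, SD), for a log2 fold change of -0.36 (SE 0.11, edgeR adjusted p 0.00399). The groups overlapped, since shNC replicate 2 at 9.01 CPM lay below shDDX21 replicate 1 at 9.86 CPM. Without shNC replicate 3 the log2 fold change was -0.25 and the call was lost (edgeR adjusted p 0.0834), so the call of SULF2, but not its direction, rests on that library. SULF2 shares 247 exon bases with NCOA3 on the other strand, which gave 4623, 3807 and 4585 shNC counts and 4125, 3658 and 3886 shDDX21 counts.

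GPX3 (ENSG00000211445; chromosome 5, 151020591 to 151028988, plus strand) gave 104, 101 and 110 shNC counts and 125, 95 and 94 shDDX21 counts. Its level was 6.10 ± 0.551 CPM in shNC against 5.80 ± 0.551 CPM in shDDX21 (n = 3 in each group, SD), and the groups overlapped. The log2 fold change of -0.06 (SE 0.14, edgeR adjusted p 0.736) had a 95% interval of -0.33 to 0.20, and was 0.01 with upper-quartile scaling. The interval holds the changes that these libraries are compatible with, and the missing call does not show that GPX3 was unchanged. Of the 7 matches, 2 thus had every shDDX21 library above every shNC library, 3 had every one below and 2 overlapped. The shares of all genes tested without overlap were 27.9% above and 29.5% below.

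**Figure D3:**
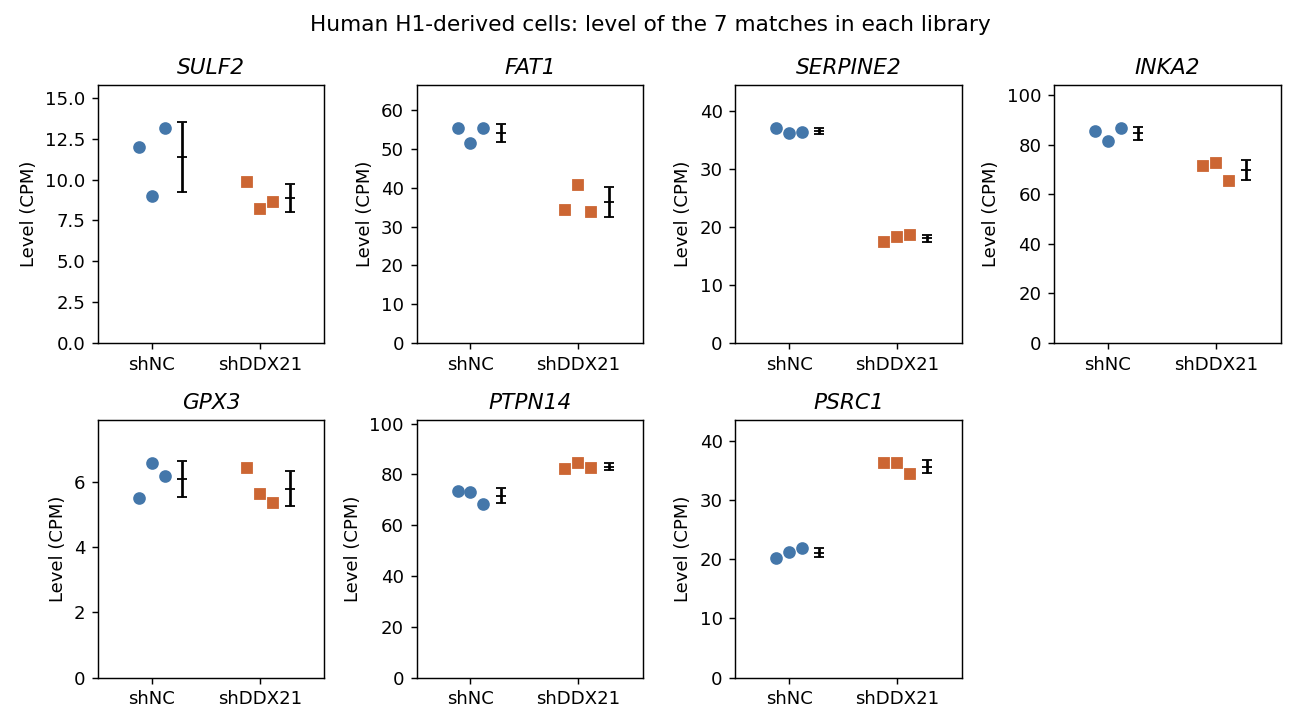
Level of the 7 human matches in CPM in each library, circles for shNC and squares for shDDX21, with the mean and SD of the 3 libraries beside the points and every axis starting at 0. PSRC1 and PTPN14 are higher in shDDX21, SERPINE2, FAT1 and INKA2 are lower without overlap, and the groups of SULF2 and GPX3 overlap.

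Set side by side, the mouse and human log2 fold changes were 7.95 and -0.36 for Sulf2, 7.85 and -0.58 for Fat1, 6.14 and -1.02 for Serpine2, and 5.81 and -0.28 for Inka2. They were 5.12 and -0.06 for Gpx3, 2.86 and 0.21 for Ptpn14, and 3.21 and 0.76 for Psrc1. The difference between the experiments was not tested for these genes, because the mouse value chose them. Species, cell source, deletion against knockdown and the time since loss of DDX21 all differ between the experiments and cannot be told apart. The summed level of the 7 matches was 279.1 to 289.2 CPM in shNC and 248.4 to 266.4 CPM in shDDX21.

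**Figure D4:**
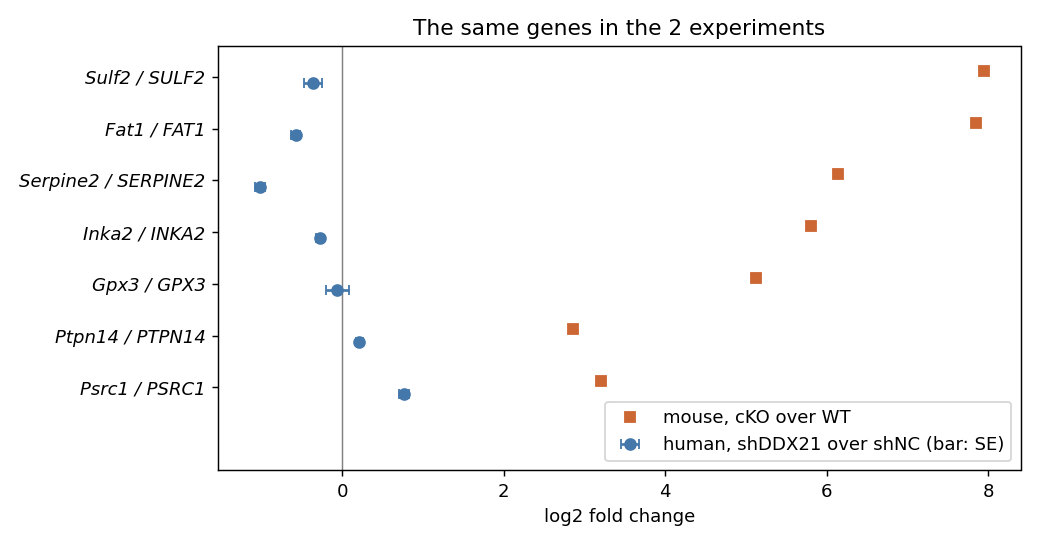
Log2 fold change of the 7 genes with a human match, squares for mouse (cKO over WT) and circles for human (shDDX21 over shNC, with the standard error as bar). Mouse values run from 2.86 to 7.95 and human values from -1.02 to 0.76.

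Per length, INKA2 was highest in shNC at 13.2 RPKM, followed by PSRC1 at 7.39, SERPINE2 at 4.08, PTPN14 at 3.82, FAT1 at 3.35, GPX3 at 2.03 and SULF2 at 1.63 RPKM. GPX3 and SULF2 overlapped, and each of the others lay above the next in every library. In shDDX21 PSRC1 came first at 12.5 RPKM, above INKA2 at 10.9, and SERPINE2 at 2.01 RPKM had dropped below PTPN14 at 4.43 and FAT1 at 2.25 RPKM. GPX3 at 1.93 RPKM overlapped SERPINE2, and SULF2 remained last at 1.27 RPKM.

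Known p53 target genes other than the 9 were counted from a list of 45. In the mouse 44 were tested, of which 30 were called higher, 3 lower and 11 not called, and the median log2 fold change was 1.12. Among all genes tested 20.7% were called higher and 15.8% lower, with a median of 0.00. Plk2, Fas and Lif had no WT library past the cutoff of the low-count filter and were tested because of their level in cKO, so their calls give no support. Of the other 41, 27 were called higher and 3 lower. Mdm2, the ubiquitin ligase that restrains p53, rose by 2.50, and Cdkn1a, the inhibitor of cyclin-dependent kinases, by 5.81 (edgeR adjusted p 5.91e-08 each). Eda2r, a death receptor of the TNF receptor family, rose by 6.59 and the cyclin gene Ccng1 by 2.86 (edgeR adjusted p 5.91e-08 and 7.51e-08). The kinase gene Plk2 had 4, 6 and 8 WT counts and a fitted log2 fold change of 8.33. In the human cells 22 of 45 were called higher, 10 lower and 13 not called, with a median of 0.10, against 25.3% higher and 27.4% lower over all genes. CCNG1, TP53INP1 and CDKN1A rose by 0.80, 0.87 and 0.59, while BTG2 and EPHA2 changed by -0.62 and -1.67 (edgeR adjusted p at most 2.17e-31).

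Relatives and partners of the 9 genes were counted from 9 lists holding 51 genes. In the mouse 27 were tested, of which 10 were called higher, 5 lower and 12 not called, with a median log2 fold change of 0.13, against 20.7% higher and 15.8% lower over all genes. A gene among the 10 had no WT library past the filter's cutoff, and Dchs1, Ptpn3 and Mapre3 had 1 each. All of these were tested because of their level in cKO, so their calls give no support. In the human experiment 41 were tested, of which 6 were called higher, 20 lower and 15 not called, with a median of -0.32, against 25.3% higher and 27.4% lower over all genes, and 63.4% of the 41 were called at all against 52.7%. Among the 20, ANKRD1 had no shDDX21 library past the cutoff and CCN2 had 2. Both were tested because of their level in shNC, so their calls give no support. Upper-quartile scaling gave 9 higher and 17 lower in the human experiment.

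Among anoctamins, the family of Ano3, 3 of 4 tested mouse genes, Ano1, Ano6 and Ano10, rose by 1.15, 0.64 and 0.98 (edgeR adjusted p 3.05e-05, 0.000495 and 0.000724), where 20.7% of all genes were called higher. In the human cells 4 of 6 were called lower, as were 27.4% of all genes. ANO6, the phospholipid scramblase gene, fell by 0.45 and ANO10 by 0.21 (edgeR adjusted p 1.07e-14 and 0.00261). ANO5 at -0.68 (edgeR adjusted p 0.0461) lost its call without shNC replicate 1 or 2 or shDDX21 replicate 1 or 3, where its adjusted p was 0.0867, 0.221, 0.11 and 0.213. ANO7 at -0.41 (edgeR adjusted p 0.0431) lost it without shNC replicate 1 or 2 or shDDX21 replicate 2 or 3, with 0.122, 0.0665, 0.283 and 0.14.

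Of the genes that act with Sulf2 on heparan sulfate, the sulfotransferase gene Hs6st1, which adds the 6-O groups, fell by 0.28 in the mouse (edgeR adjusted p 0.00324). HS6ST1 fell by 0.58 in the human cells, from 215.7 to 144.2 CPM (edgeR adjusted p 6.68e-28). SULF1, the paralog of SULF2, was at -0.23 and was not called (edgeR adjusted p 0.276). HS6ST2, from the same list, was at -0.21 and was not called (edgeR adjusted p 0.355). In the human libraries HS6ST1 and SULF2 were thus both lower, the second with the limit given above, while HS6ST2 and SULF1 were not called.

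Genes from the lists of relatives and targets of Fat1 and Serpine2 also rose in the mouse. Dchs1, a cadherin that binds Fat4, was the only tested member of the Fat and Dachsous list and rose by 1.46 from 0.339 to 0.945 CPM (edgeR adjusted p 0.023). Its call was lost without WT replicate 2 (0.0742) or cKO replicate 3 (0.0525), and Dchs1 passed the filter through its level in cKO. Plau, a protease that Serpine2 inhibits, rose by 1.07 (edgeR adjusted p 0.00218). In human cells both genes were lower, DCHS1 at -0.73 and PLAU at -0.82 (edgeR adjusted p 1.39e-19 and 0.00266). FAT4 was at -0.62 and FAT3 at 0.96 (edgeR adjusted p 5.45e-07 and 1.92e-07).

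For Ptpn14, the related phosphatase gene Ptpn3 rose by 2.64 in the mouse, from 0.465 to 2.92 CPM, and Ptpn13 fell by 0.50 (edgeR adjusted p 4.06e-05 and 0.00203). Ptpn3 passed the filter through its level in cKO. Ptpn21, the closest relative of Ptpn14, was at 0.31 (edgeR adjusted p 0.0485) and lost its call when any 1 library other than WT replicate 3 was left out, with adjusted p-values of 0.0811 to 0.152. In the human cells PTPN4 and PTPN13 fell by 0.27 and 0.43 (edgeR adjusted p 0.00229 and 3.51e-13).

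The Hippo and YAP list, tied to both Ptpn14 and Fat1, had 6 of 12 genes tested in the mouse. Tead2, a DNA-binding partner of YAP, rose by 0.99 from 0.839 to 1.67 CPM (edgeR adjusted p 0.0088). Tead3 was at -0.99 (edgeR adjusted p 0.0164), lost without WT replicate 1 (0.0608), WT replicate 2 (0.0607) or cKO replicate 3 (0.0581). The kinase gene Lats2 was at -0.53 (edgeR adjusted p 0.0472), lost without WT replicate 1, 2 or 3 (0.0782 to 0.119) or cKO replicate 3 (0.0844). In the human cells 8 of 12 were called lower and 1 higher, against 27.4% and 25.3% of all genes, the 3 with the smallest p being LATS1, TEAD4 and ANKRD1 at -0.55, -0.73 and -3.93 (edgeR adjusted p 5.88e-20, 4.7e-09 and 4.58e-09). ANKRD1, a known YAP target, went from 1.23 to 0.0748 CPM. Both ANKRD1 and CCN2, also among the 8, were tested because of their level in shNC. WWTR1, one of the 8, lost its call when any 1 library other than shNC replicate 3 was left out (edgeR adjusted p 0.0591 to 0.174). TEAD1 lost it without shNC replicate 3 (0.0699) or shDDX21 replicate 2 (0.169), and TEAD2, the gene called higher, without shNC replicate 3 (0.0786) or shDDX21 replicate 1 (0.11).

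Of the remaining lists, the glutathione peroxidase gene Gpx4, which protects membranes, fell by 0.35 in the mouse, while GPX1 and GPX4 rose by 0.20 and 0.24 in the human cells (edgeR adjusted p 0.00716, 1.49e-10 and 2.83e-09). Pak4, the kinase gene whose product Inka2 inhibits, was at -0.56 in the mouse (edgeR adjusted p 0.125), and PAK4 rose by 0.62 in the human cells (edgeR adjusted p 5.25e-16). Mapre3, which encodes the microtubule end-binding protein EB3 that Psrc1 binds, was at 1.73 in the mouse (edgeR adjusted p 0.0287). That call was lost without WT replicate 1 (0.081) or cKO replicate 3 (0.098), and Mapre3 passed the filter through its level in cKO. MAPRE3 rose by 1.79 in the human cells, from 1.59 to 5.53 CPM, and KIF2A, the microtubule-depolymerising kinesin that Psrc1 recruits, fell by 0.62 (edgeR adjusted p 3.33e-13 and 4.38e-25).

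The mouse genes most like the 9 were sought by distance, over the 6 mouse libraries, to the median profile of the 9 in log2(CPM + 0.25). The nearest were Eda2r at a distance of 0.36, Dglucy at 0.98, Prrg4 at 1.09, Gask1b at 1.40 and Igsf9b at 1.61, while the 9 genes themselves lay at 0.67 (Serpine2) to 7.08 (Psrc1). Eda2r, which is also on the p53 list, went from 0.882 ± 0.133 to 85.6 ± 3.12 CPM and Dglucy from 1.23 ± 0.351 to 94.6 ± 1.57 CPM (n = 3 in each group, SD). Of their human matches, EDA2R and DGLUCY rose by 0.59 and 0.47 (edgeR adjusted p 6.7e-22 and 3.35e-14), GASK1B fell by 0.35 (edgeR adjusted p 0.0152) and IGSF9B at -0.28 was not called (edgeR adjusted p 0.142). PRRG4 was not paired with an identifier here.

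To place the near-silent members among all such genes, those under 1 CPM in every WT library and at least 5 CPM in every cKO library were listed. There were 39, of which 36 were protein coding and 4 were Fat1, Sulf2, Zfp365 and Ano3. The p53 list held 4 others, Epha2, Lif, Plk2 and Fas, and the hepatocyte marker list 2, Afp and Alb. The reverse pattern was found for 2 genes. Human matches of 21 of the 39 could be tested, and none was under 1 CPM in every shNC library. As said above, the matching could miss human genes with hardly any counts, so the absence of silent matches carries no support. The calls that follow hold for these 21 and not for all 39. Of the 21, 3 were called higher (14.3%), 11 lower (52.4%) and 7 not called, against 25.3% and 27.4% of all genes, with a median log2 fold change of -0.31. SULF2 and FAT1 are among the 11. With upper-quartile scaling 5 were called higher and 9 lower.

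The 3 called higher were FAS, a death receptor gene, at 0.43, PLEKHG1 at 0.35 and TNFSF4, which encodes the ligand OX40L, at 0.68 (edgeR adjusted p 1.24e-06, 3.05e-10 and 0.00892). TNFSF4 lost its call without shDDX21 replicate 2 (edgeR adjusted p 0.187). The 5 with the largest decreases were the cation channel gene TRPM2 at -1.71, CGREF1 at -1.69, the ephrin receptor gene EPHA2 at -1.67, the cytokine gene LIF at -1.02 and the oxytocin receptor gene OXTR at -0.89 (edgeR adjusted p 3.68e-18, 3.35e-06, 2.17e-31, 7.36e-08 and 0.0081). OXTR lost its call without shNC replicate 2 (edgeR adjusted p 0.15). With limits of 0.5 CPM in WT and 10 CPM in cKO, 14 mouse genes and 6 tested human matches remained. Of the 6, 2 were called higher and 2 lower (33.3% each), against 25.3% and 27.4% of all genes. The median log2 fold change of these 6 was 0.18, against -0.31 for the 21, so its sign depends on the limits.

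**Figure D5:**
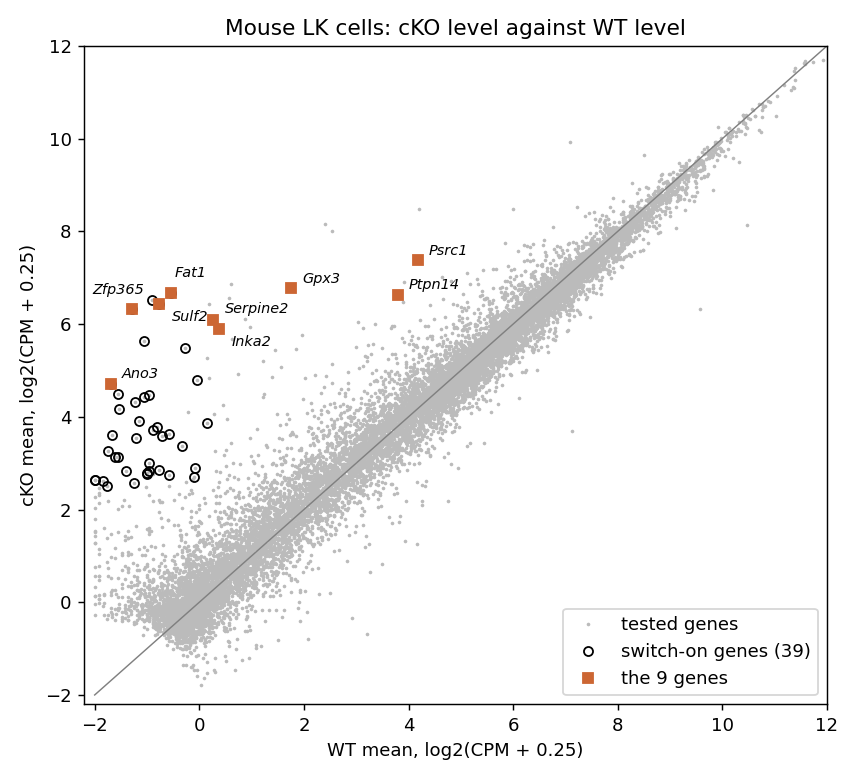
Mean level in cKO against mean level in WT for all tested mouse genes, both in log2(CPM + 0.25), with the line of equal levels; open circles are the 39 genes under 1 CPM in every WT library and at least 5 CPM in every cKO library, and squares are the 9 genes. Zfp365, Ano3, Sulf2 and Fat1 lie among the open circles, and Gpx3, Ptpn14 and Psrc1 lie to the right of them.

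Several of the 9 genes are expressed outside the blood, so marker lists of other cell types were measured in the same libraries. Hepatocyte markers summed to 14.8 to 16.7 CPM in WT and 52.3 to 56.3 CPM in cKO. Afp went from 0.857 to 14.4 CPM and Alb from 0.417 to 12.1 CPM, while Trf, the highest in WT, went from 10.0 to 13.7 CPM. Of 15 listed 8 were tested and called higher, where 20.7% of all genes were, but Apob, Ttr, Fga and Ambp had no WT library past the filter's cutoff and Alb had 1, so that the filter largely fixed this count. Stellate and mesenchymal markers summed to 12.3 to 16.2 and 23.8 to 30.0 CPM, with 3 of 4 tested of 12 listed called higher, Col1a2 and Postn by 1.65 and 2.40 and Des, which had 0 counts in WT. Endothelial markers summed to 80.0 to 100.5 and 118.7 to 138.4 CPM, with 4 of 8 tested of 10 listed called higher and Tek at 2.05. Biliary and epithelial markers summed to 4.32 to 5.74 and 6.89 to 7.80 CPM (1 of 4 tested of 8 listed higher), and macrophage markers to 7.98 to 8.91 and 7.62 to 9.48 CPM (1 of 3 tested of 8 listed higher, 1 lower). The endothelial Cdh5 and the epithelial Cdh1, both called higher, had 2 WT libraries each past the cutoff. They were tested because of their level in cKO. Markers without a single count in WT were Fgg for hepatocytes, Lyve1 for endothelium, Lum, Des, Col6a1 and Rgs5 for mesenchyme, Krt19 and Sox9 for epithelium and C1qc for macrophages. Their summed cKO counts were, in this order, 22, 10, 3, 59, 1, 10, 6, 1 and 0. Other members of the same lists were present in WT. The highest there were Trf at 10.0, Egfl7 at 39.1, Pdgfrb at 10.6, Krt18 at 3.15 and Cd68 at 5.42 CPM.

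Within the blood lineages, megakaryocyte markers summed to 108.8 to 128.9 CPM in WT and 190.6 to 264.5 CPM in cKO (4 of 7 tested of 8 listed higher, among them Ppbp with no WT library past the cutoff), and erythroid markers to 1227 to 1340 and 738.8 to 827.4 CPM (2 of 7 tested higher, 3 lower). The blood progenitor list summed to 1433 to 1461 and 1538 to 1554 CPM, with 2 of 8 called higher and 2 lower, Ptprc and Cd34 higher by 0.51 and 0.69 and Kit and Spn lower by 0.19 and 0.14. Genes of the lineage gate summed to 4.87 to 6.19 and 3.69 to 4.18 CPM (1 of 4 tested of 6 listed higher, 3 lower). The part of any of these cell types in the levels of the 9 genes was not tested.

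The lists were summed in the human libraries as well, where 25.3% of all genes were called higher and 27.4% lower. The blood progenitor list summed to 2294 to 2335 CPM in shNC and 2141 to 2170 CPM in shDDX21, and all 8 genes were called, with a median log2 fold change of -0.31. SPN, CD34 and KIT rose by 0.35, 0.26 and 0.13, and GATA2, MYB, RUNX1, PTPRC and SPI1 fell by 1.12, 0.61, 0.48, 0.45 and 0.17. Genes of the lineage gate summed to 11.4 to 14.1 and 11.3 to 12.03 CPM (1 of 4 higher, 1 lower). Hepatocyte markers, of which 2 could be matched, summed to 8.49 to 10.5 CPM in shNC and 5.39 to 5.64 CPM in shDDX21, both called lower. Endothelial markers summed to 1940 to 1995 and 1642 to 1664 CPM (3 of 9 higher, 5 lower), stellate and mesenchymal markers to 208.0 to 219.4 and 204.7 to 213.2 CPM (2 of 8 higher, 6 lower), and macrophage markers to 124.8 to 135.6 and 72.0 to 76.3 CPM (4 of 4 lower). The hepatocyte marker HNF4A and the mesenchymal marker COL3A1, both called lower, had 2 shDDX21 libraries each past the filter's cutoff. They were tested because of their level in shNC. Biliary and epithelial markers summed to 142.4 to 149.4 and 162.9 to 169.6 CPM (2 of 5 higher, 1 lower), megakaryocyte markers to 1491 to 1562 and 1766 to 1794 CPM (3 of 5 higher, 2 lower) and erythroid markers to 494.9 to 514.3 and 587.0 to 606.2 CPM (3 of 7 higher, 1 lower). Markers of pluripotent stem cells, the source of these cells, summed to 257.1 to 267.8 and 291.3 to 305.3 CPM, with 1 of 4 called higher and 2 lower. LIN28A went from 157.4 to 208.6 CPM, ZFP42 from 11.1 to 4.71 CPM and PODXL from 17.4 to 9.70 CPM, and DPPA4 was not called. The part of these shifts in the falls of SERPINE2, FAT1, SULF2 and INKA2 and the rises of PSRC1 and PTPN14 was not tested.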

How the data were processed

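Sequencing reads were mapped with STAR and counted per gene with featureCounts on mm10 and hg38, and DESeq2 was used, per the submitters' processing notes, and the authors deposited unnormalized counts per gene, with positions and exon length. The strand setting is not given in the sources used here. The authors' second tables hold normalized values (signal), in which each library is its counts over a single constant (largest relative deviation 4.97e-10), with deposited log2 ratios of these values to the control mean that were not used here, and were used for gene symbols: 14931 human genes are paired with one. Mouse identifiers were matched to GENCODE M21 (99.4%), and human ones by symbol.

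Counts were tested here with edgeR 4.0.16 in R 4.3.3 (filterByExpr, TMM, quasi-likelihood test, two-sided, no covariate), mouse and human apart, 3 libraries against 3. Calls are genes whose p, adjusted by Benjamini-Hochberg, was under 0.05 over all 14918 mouse or 20188 human genes tested. Called, higher, lower, rose and fell refer to this test. An exact permutation test of 3 against 3 cannot give a two-sided p below 0.1. The biological coefficient of variation was 0.105 in the mouse and 0.0223 in the human libraries, and the depth of 15289510 counts or more per library limits how low a level can be read. SE is the standard error of the log2 fold change. The procedure was tested on simulated counts.

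The 9 genes, the gene lists and the naming rule were chosen with earlier results of these data known. Named are the 9 genes and their matches; the called relatives (all where at most 5 per list, else the 3 with the smallest p); the 5 p53 targets with the smallest p in each experiment; the 5 nearest profiles; up to 5 human matches of switch-on genes in each direction with a mean of at least 1 CPM; up to 3 markers per list, some of which are given only in the list's sum; and the targeted gene. Genes named outside this rule (neighbours, overlapping genes, filter cases, and values for contrast such as SULF1) were chosen after their values were seen. A called gene among the relatives is not reported here, though the counts over the lists include it. Alternatives were other scalings, no filter, the replicate block, leaving out each library, DESeq2 1.42.0, an adjusted p under 0.01 and stricter limits for switch-on genes.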

Additional observations from a re-analysis of the deposited data

Results flagged for a closer look

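FAT1, SERPINE2 and INKA2 were singled out because the mouse gene was higher in every cKO library than in every WT library, while the human gene was lower in every shDDX21 library than in every shNC library. The human log2 fold changes were -0.58 for FAT1, -1.02 for SERPINE2 and -0.28 for INKA2, against mouse values of 7.85, 6.14 and 5.81. The difference between the experiments was not tested for them, since the mouse value chose the genes. That choice also set the mouse condition, which all 9 genes met. The human condition was met by 3 of the 7 matches, and by 29.5% of all human genes tested. The flag therefore rests on the human condition alone and carries no test.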

How the results depend on the processing

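Each result was recomputed under the other scalings, without the filter, with the replicate block, without each library, with DESeq2 and at an adjusted p under 0.01 where these apply. The number of the 7 human matches called was 6 under each of these except 5 without shNC replicate 3. The median mouse log2 fold change of the 9 genes, 6.14, was 6.21 with total counts and 6.02 to 6.31 when 1 library was left out. GPX3 turned from -0.06 to 0.01 with upper-quartile scaling, and human matches of switch-on genes called fell from 14 of 21 to 4 of 6 under the stricter limits, where fewer genes qualify. The median human log2 fold change of these matches went from -0.31 to 0.18. When 1 library was left out, calls ranged from 28 to 35 (p53 list) and 11 to 16 (relatives) in the mouse, and from 31 to 32, 23 to 25 and 12 to 14 (switch-on matches) in the human experiment. Scaling to total counts raised the share of mouse calls that were higher from 56.6% to 68.9%, and upper-quartile scaling raised the human share from 48.0% to 57.4%, each with a shift of the median of all genes by about 0.07. Whether the numbers in the titles pair the samples is not given. Deviations of same-numbered samples correlated at -0.177 to 0.316 in the mouse and -0.014 to -0.001 in the human experiment. Those of differently numbered samples ran from -0.419 to 0.408 and from -0.010 to 0.013. With 3 samples in a group these values cannot settle whether samples were paired. With the replicate block 6 human matches, 33 mouse and 32 human p53 targets, 17 mouse and 27 human relatives and 15 switch-on matches were called. Depth limits the WT levels of Zfp365, Ano3, Sulf2 and Fat1 most, at 10, 4, 22 and 28 counts over 3 libraries.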
